A study of Homo sapiens with 24 samples.

Results

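The proteins of the cytosolic ribosome are encoded by a large gene family, and the mRNAs of that family were followed here through soluble and granule-enriched cytoplasm of U2OS cells. Rows of the exon count table were taken by symbol: RPL or RPS followed by digits and at most a single letter A, L or X, together with RPLP0, RPLP1, RPLP2 and RPSA. This gave 81 genes of the 60308 in the table, 49 of the large subunit and 32 of the small subunit. All 81 passed the filter of a mean of at least 1 CPM (the gene's count scaled to a common library total) over all libraries. The rule used symbols only and no measured value.

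U2OS is an established human osteosarcoma cell line. Cells received 0.12% DMSO for 2 h (Ctrl), 500 µM sodium arsenite for 60 min (NaAsO2), 6 µM RK-33 (RK-33), a small molecule that inhibits the RNA helicase DDX3, or RK-33 for 1 h followed by arsenite (Combo). For RK-33 alone a pre-treatment of 1 h is listed, and the study timed the 2 h of DMSO to match RK-33. DMSO is listed for Ctrl only, so whether the NaAsO2 cells received it is not known. No group carried a transgene or deletion. Each lysate was spun at low speed to remove nuclei and then at 10000 g, which left a supernatant, the soluble fraction, and a pellet, the insoluble fraction, which is enriched for stress granules, P-bodies and other dense material. Each of the 8 treatment-by-fraction groups held 3 rRNA-depleted libraries. The labels number the replicates without saying that they came from separate cultures. The study states that sequencing of both fractions was repeated 3 times in each condition. It does not say whether the repeats were separate cultures, so the p-values measure the spread between these libraries, which may be partly technical.

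Ribosomal protein mRNAs are short, abundant and very efficiently translated, and they share a 5′ terminal oligopyrimidine tract (TOP), a run of C and T bases that starts with a C at the cap. The tract lets the cell switch the whole family between polysomes and untranslated particles: when mTOR signalling or initiation falls, TOP mRNAs leave polysomes and are held by cap- and tract-binding proteins such as LARP1. Arsenite blocks initiation through phosphorylation of eIF2α and drives untranslated mRNA into stress granules, where long, poorly translated mRNAs are known to be over-represented. TIA1, a stress granule protein, also binds TOP mRNAs. DDX3 unwinds structured 5′ leaders and takes part in stress granule assembly.

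The start of the transcript is shown for genes on which the results turn, to set the tract beside the values. RefSeq (GRCh38.p14) listed a start for 64 of the 81 genes. A C at the first transcribed base followed by at least 4 bases that are each C or T, read on the sense strand, stood at a listed start of 46 of them (71.9%), against 1404 of 27305 genes with a listed start (5.14%). Each line holds 10 bases before the listed start and 20 bases from the start on, and capitals mark the tract. The first 5 genes had a tract, of 9, 10, 7, 6 and 19 bases, and the other 4 had no match at the listed start.
RPLP0: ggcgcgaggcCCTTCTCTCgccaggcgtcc
RPS12: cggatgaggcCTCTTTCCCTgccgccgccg
RPL13A: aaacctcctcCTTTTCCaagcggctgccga
RPS13: ctctcgctctCCTTTCgttgcctgatcgcc
RPL39: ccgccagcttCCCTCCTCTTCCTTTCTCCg
RPL3: gccgaccggcctctaccggcgggatttgat
RPL4: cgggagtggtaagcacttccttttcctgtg
RPL32: ggtgacccttgacctcctgggatcgcatct
RPS4X: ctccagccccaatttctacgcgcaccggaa
These windows lay at chr12:120201092-120201121 (minus strand), chr6:132814559-132814588 (plus strand), chr19:49487598-49487627 (plus strand), chr11:17077648-17077677 (minus strand), chrX:119791611-119791640 (minus strand), chr22:39319604-39319633 (minus strand), chr15:66504836-66504865 (minus strand), chr3:12840431-12840460 (minus strand) and chrX:72277229-72277258 (minus strand). RPLP0 anchors the ribosomal stalk, RPS12 and RPS13 are small subunit proteins, RPL13A is a large subunit protein that is released to silence mRNAs in interferon-treated monocytes, and RPL39 is one of the smallest proteins of the large subunit. RPL3 and RPL4 are core proteins near the peptidyl transferase centre and the exit tunnel, RPL32 is a large subunit protein, and RPS4X is the X-linked copy of a small subunit protein. A missing match says only that these letters do not stand at the listed start. The tract is a description of the sequence and was not tested against the values.

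The libraries held 8627290 to 15376600 exon counts each, and markers of this mesenchymal tumour line (VIM, SPARC, COL1A1, RUNX2 and FN1) summed to 4376 to 9257 CPM, while 6 genes of blood, epithelial and liver cells summed to at most 10.8 CPM. COL1A2, the sixth gene of the mesenchymal list, stayed under the filter. RN7SL1, the RNA of the signal recognition particle, took 7.51 to 15.5% of the exon counts of soluble libraries. The highest was RK-33 soluble replicate 3, with 15.5% against 8.42% and 9.13% in the other 2 libraries of its group. Among the insoluble libraries 1 stood apart, NaAsO2 insoluble replicate 3, in which RN7SL1 took 5.79% against 0.426 to 1.23% in the others. Among the 81 genes it held 13 at 2-fold or more above the mean of the other 2 NaAsO2 insoluble libraries and 3 at 2-fold or more below it, whereas in the 21 libraries of the other 7 groups the same comparison gave 1 gene at most. RPL17, RPL13A and RPS9 were 4.61, 4.403 and 3.88 times the mean of the other 2 there, and RPS27 was 0.438 times. Over 10194 genes the deviation of this library rose with the GC content of the transcript (Spearman's rho 0.73, across genes, which are not independent replicates), and over the 81 genes rho was 0.32. Combo insoluble replicate 3 had a like slope with GC over all genes (rho 0.74) with 1 member at 2-fold or more below and none as far above. RK-33 soluble replicate 3 had a slope in the same direction (rho 0.58). In it 70 of the 81 genes lay above the mean of the other 2 libraries of its group, none by 2-fold or more. The part of GC content in the results was not tested, and values that turned direction or changed their call without NaAsO2 insoluble replicate 3 are given with and without it.

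Levels are CPM with TMM (trimmed mean of M-values) scaling, and to compare genes they were divided by the length of the Ensembl canonical transcript. Averaged over the 24 libraries, RPLP0 was the highest with 954 CPM per kb, followed by RPS20 with 869.9, RPL13A with 814, RPL8 with 752 and RPS2 with 751. The lowest were RPL3L (0.951 CPM per kb), the muscle paralog of RPL3, RPS10 (5.01), RPL22 (8.94), RPS27L (9.12), a p53-induced paralog of RPS27, and RPL10L (11.4), the testis paralog of RPL10. RPS27L was low per kb but not in CPM, with a mean of 88.4 CPM in the Ctrl soluble libraries.

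Reads of several members may have been counted only in part. The authors counted unique alignments only, and 77 of the 81 genes had at least 1 named pseudogene in the table. Pseudogenes held 67.7% of the counts of RPS10 and its pseudogenes together, 27.4% for RPL23A, 23.9% for RPL17, 21.5% for RPL26 and 20.7% for RPL36A. RPS10 also shared 40.3% of its exonic bases with another gene, the read-through RPS10-NUDT3, RPL17 shared 35.5% with RPL17-C18orf32, and RPL36A shared 22.4% with overlapping genes, chiefly GLA. RPL10 and RPL30 shared 53.4% and 40.8%. The levels of these genes are uncertain, and without strand in the counting an overlapping antisense gene cannot be told apart. RPL3L (18 counts in the median library), RPS10 (31.5), RPL17 (83.0) and RPL10L (96.0) had the least depth.

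The family held a larger share of the soluble than of the insoluble libraries in each treatment. In the Ctrl soluble libraries the 81 genes held 2.77%, 3.29% and 3.02% of exon counts, and in the Ctrl insoluble libraries 1.197%, 1.39% and 1.16%. After NaAsO2 the shares were 3.56%, 3.61% and 3.81% in the soluble and 0.872%, 0.932% and 1.21% in the insoluble fraction. All 3 NaAsO2 soluble libraries lay above all 3 Ctrl soluble libraries, while the insoluble libraries of the 2 treatments overlapped, with replicate 3 the highest of the NaAsO2 insoluble group. With RK-33 alone the soluble libraries held 2.82%, 3.04% and 3.37%, overlapping Ctrl, and the insoluble libraries 1.08%, 0.878% and 1.06%, all below Ctrl. Combo libraries held 3.195%, 2.91% and 3.01% in the soluble fraction, all below the NaAsO2 libraries and within the Ctrl range, and 1.097%, 0.926% and 1.09% in the insoluble fraction, overlapping NaAsO2.

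**Figure D1:**
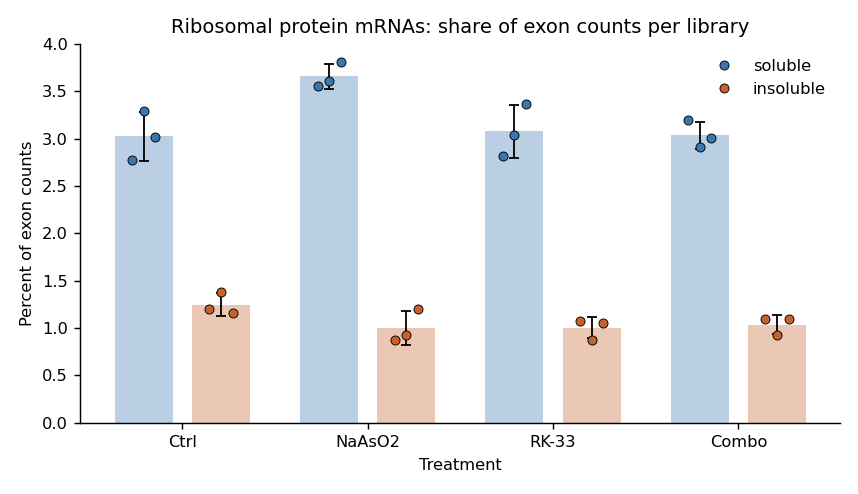
Share of exon counts (percent) that fell on the 81 cytosolic ribosomal protein genes in each of the 24 libraries, by treatment and fraction; points are libraries, bars are group means and error bars SD (n = 3). Soluble libraries lay between 2.77% and 3.81% and insoluble libraries between 0.872% and 1.39%, with the NaAsO2 soluble group the highest.

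Taken as a log2 ratio of insoluble over soluble share within each replicate number, the depletion was -1.28 ± 0.09 (SD, n = 3) in Ctrl, -1.88 ± 0.19 after NaAsO2, -1.62 ± 0.21 with RK-33 and -1.55 ± 0.10 in Combo, which is 2.43-, 3.68-, 3.07- and 2.93-fold. Small subunit genes had the lower ratio in each treatment, from -1.45 ± 0.10 in Ctrl to -2.02 ± 0.25 after NaAsO2, against -1.18 ± 0.08 and -1.79 ± 0.16 for large subunit genes. The 77 mitochondrial ribosomal protein genes, encoded in the nucleus and translated on the same ribosomes, had ratios of -0.996 ± 0.13 in Ctrl and -1.27 ± 0.04 after NaAsO2. No test was run on these sums over chosen genes. They are shares of each library, so the amount of RNA in each fraction is not known from them, and fewer cells and less RNA per cell cannot be told apart. The study added a control RNA (spike-in) to each library and scaled its own comparison of the fractions to it. No spike-in scaling was used here.

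In unstressed cells almost the whole family was lower in the insoluble fraction. By edgeR's quasi-likelihood test, adjusted over 17666 genes with the spread estimated from all 24 libraries, 76 of the 81 genes were lower in the insoluble than in the soluble fraction of Ctrl (of all genes, 26.6% were lower) and 1 was higher (24.4%). The median log2 difference was -1.27, a 2.41-fold lower level, against -0.03 over all genes. RPL13A, RPL36A, RPL4 and RPS10 did not pass. Of all genes 35.8% had every insoluble library below every soluble one, and of the 81 genes 78 did.

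RPS12 lay at the low end. Its levels were 424, 552 and 474 CPM in the 3 Ctrl soluble libraries and 109.6, 128 and 104 CPM in the 3 Ctrl insoluble libraries, a log2 difference of -2.09 (SE 0.16, adjusted p = 1.1e-09). The groups lay far apart. RPS14, a small subunit protein whose partial loss features in the 5q deletion syndrome, followed with -1.92 (SE 0.32, adjusted p = 3.6e-05), and RPL29 with -1.83 (SE 0.21, adjusted p = 2.9e-07).

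RPL3 went the other way. It was at 414, 534 and 467 CPM in the Ctrl soluble libraries and at 544, 648 and 691 CPM in the insoluble ones, a log2 difference of 0.41 (SE 0.16, adjusted p = 0.0310). Every insoluble library was above every soluble one, and RPL3 was the one member called higher in an insoluble fraction in any of the 4 treatments. RPL4 was near parity at -0.24 (SE 0.12, adjusted p = 0.0972), with 697, 852 and 779 CPM in the soluble and 575, 693 and 702 CPM in the insoluble fraction. When NaAsO2 insoluble replicate 3, which enters only the shared estimates here, was left out, RPL4 was -0.29 (adjusted p = 0.0241) and passed. RPS10, at 0.04 (SE 0.23, adjusted p = 0.897), rested on few counts, and without that library its value was -0.0045.

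After NaAsO2 the depletion was deeper. In the NaAsO2 libraries 80 of the 81 genes were lower in the insoluble fraction (all genes 29.7%) and none were higher (all genes 27.9%; by an unadjusted p under 0.05 and by DESeq2, also 0), with a median log2 difference of -2.18, or 4.54-fold lower, against 0.03 over all genes. Without NaAsO2 insoluble replicate 3 the median was -2.21 and the number lower 80. The largest differences were those of RPL32 (-3.32, SE 0.24, adjusted p = 7.3e-11), RPL39 (-3.11, SE 0.20, adjusted p = 2.2e-11) and RPL29 (-3.09, SE 0.22, adjusted p = 6.5e-11).

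RPL32 stood at 468, 459 and 556 CPM in the NaAsO2 soluble libraries and at 55.8, 64.3 and 27.99 CPM in the insoluble ones. RPL39 stood at 115, 118 and 121 CPM in the soluble and 15.7, 16.1 and 8.78 CPM in the insoluble libraries. In both genes the groups were far apart and insoluble replicate 3 was the lowest library, so that without it the log2 difference was -3.001 for RPL32 and -2.85 for RPL39.

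At the other end were RPL3 (-0.41, SE 0.16, adjusted p = 0.0289), RPL13A (-0.53, SE 0.39, adjusted p = 0.249) and RPL36A (-0.64, SE 0.25, adjusted p = 0.0317). RPL13A was the one gene of the 81 that did not pass. Its insoluble levels after NaAsO2 were 396, 488 and 1947 CPM, with replicate 3 above every soluble library of that treatment (1219, 1422 and 1454 CPM). Without that replicate its log2 difference was -1.59 (adjusted p = 1.6e-06) and it passed, while RPL36A, at -0.50 (adjusted p = 0.0967), no longer did.

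With RK-33 alone 79 genes were lower in the insoluble fraction (all genes 30.4%) and none were higher (all genes 29.2%; also 0 by an unadjusted p under 0.05), with a median log2 difference of -1.73. RPS14 (-2.55, SE 0.33, adjusted p = 8.4e-07), RPS12 (-2.49, SE 0.16, adjusted p = 7.1e-11) and RPL12 (-2.27, SE 0.16, adjusted p = 2.0e-10) had the lowest values, and RPS10 (0.05, SE 0.24, adjusted p = 0.881) and RPL36A (-0.20, SE 0.20, adjusted p = 0.420) did not pass. RPL3 was -0.37 (SE 0.16, adjusted p = 0.0468), below 0 where Ctrl was above it. In Combo 78 genes were lower (all genes 28%) and none were higher (all genes 24.1%; also 0 by an unadjusted p under 0.05), with a median of -1.64. The lowest values were those of RPL39 (-2.51, SE 0.20, adjusted p = 9.8e-10), RPL32 (-2.40, SE 0.23, adjusted p = 1.3e-08) and RPS12 (-2.37, SE 0.16, adjusted p = 1.2e-10), and RPL3 (-0.32, SE 0.16, adjusted p = 0.0887), RPS10 (-0.43, SE 0.25, adjusted p = 0.163) and RPL13A (-0.72, SE 0.39, adjusted p = 0.129) did not pass. When NaAsO2 insoluble replicate 3, a library of neither group, was left out of the fit, RPL3 (-0.36, adjusted p = 0.0186) and RPL13A (-0.76, adjusted p = 0.00220) passed.

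**Figure D2:**
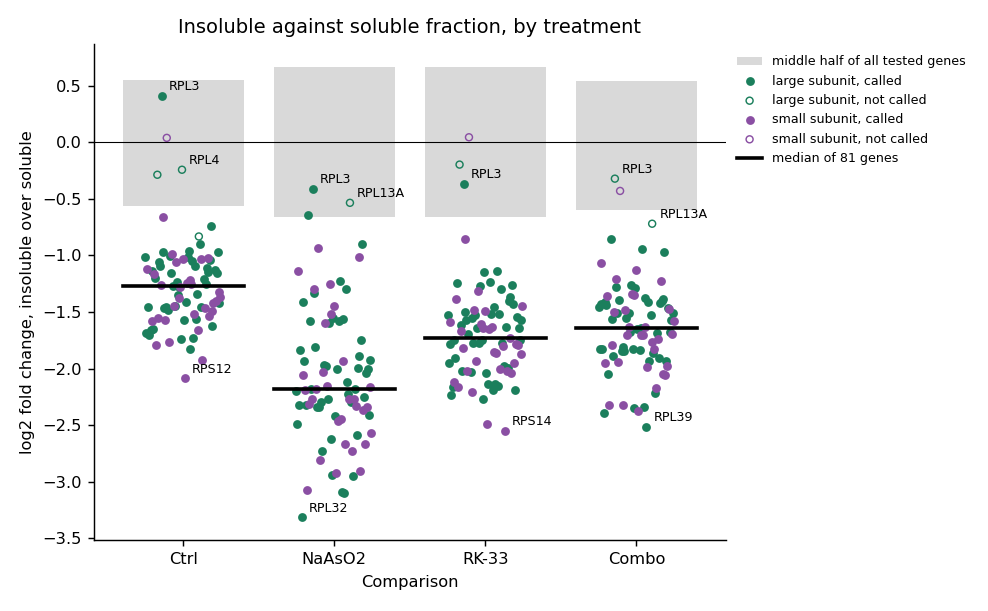
Log2 difference between the insoluble and soluble fraction (edgeR, TMM-scaled) of the 81 genes in each treatment; each point is 1 gene (green for the large and purple for the small subunit, filled where it passed the test and open where not), bars are medians, grey boxes span the quartiles of all tested genes, and named points are the genes at the ends. The medians were -1.27 in Ctrl, -2.18 after NaAsO2, -1.73 with RK-33 and -1.64 in Combo, and RPL3 lay apart from the family in Ctrl.

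Genes of both subunits were lower in the insoluble fraction. The 49 large subunit genes had medians of -1.21 in Ctrl, -2.04 after NaAsO2, -1.64 with RK-33 and -1.56 in Combo, and the 32 small subunit genes -1.37, -2.27, -1.79 and -1.70. In each treatment the small subunit median was the lower. The 46 genes with a tract at a listed start had medians of -1.33 in Ctrl and -2.14 after NaAsO2, and the 18 with a listed start and no tract -1.19 and -2.23. The 20 genes with the shortest canonical transcripts (up to 566 nt) had medians of -1.49 in Ctrl and -2.33 after NaAsO2, and the 20 with the longest (from 1474 nt) medians of -1.24 and -2.10. Across the 81 genes Spearman's rho of length with the log2 difference was 0.22 in Ctrl and 0.19 after NaAsO2, and across 17405 genes 0.30 and 0.37, which are descriptions across genes that share libraries. None of these splits was tested.

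By role, the stalk, which recruits elongation factors, is made of RPLP0, RPLP1 and RPLP2. RPLP0 was at 1172, 1568 and 1301 CPM in the Ctrl soluble and 490.4, 557 and 543 CPM in the Ctrl insoluble libraries, and after NaAsO2 at 1774, 1794 and 2058 CPM in the soluble and 519, 592 and 749.9 CPM in the insoluble libraries. The fractions did not overlap in either treatment, and the log2 difference was -1.35 (SE 0.16, adjusted p = 4.2e-07) in Ctrl and -1.60 (SE 0.16, adjusted p = 1.4e-08) after NaAsO2. RPLP1 had -1.71 (SE 0.29, adjusted p = 4.3e-05) and -1.84 (SE 0.29, adjusted p = 1.0e-05), and RPLP2 -1.56 (SE 0.20, adjusted p = 9.8e-07) and -2.12 (SE 0.20, adjusted p = 5.4e-09). RPLP1 was at 245, 264 and 737 CPM in the NaAsO2 insoluble libraries, replicate 3 far above the other 2, and without that library its difference after NaAsO2 was -2.50.

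RPL5 and RPL11 bind 5S rRNA and, when unassembled, hold back MDM2 and so stabilise p53. RPL5 was at 467, 564 and 542 CPM in the Ctrl soluble and 255, 300.4 and 289 in the Ctrl insoluble libraries, and after NaAsO2 at 681, 673 and 726 CPM in the soluble and 127, 137 and 159.5 CPM in the insoluble libraries. The fractions lay apart in both treatments, with -0.90 (SE 0.12, adjusted p = 1.7e-06) in Ctrl and -2.29 (SE 0.12, adjusted p = 1.4e-12) after NaAsO2, and the difference between these values was -1.40 (SE 0.17, adjusted p = 5.3e-06). For RPL11 the values were -1.04 (SE 0.19, adjusted p = 1.2e-04) and -1.75 (SE 0.20, adjusted p = 9.0e-08), with insoluble levels of 98.97, 98.98 and 49.9 CPM after NaAsO2. RPS19, the gene most often affected in Diamond-Blackfan anaemia, had -1.28 (SE 0.28, adjusted p = 6.4e-04) and -1.52 (SE 0.28, adjusted p = 7.6e-05), the second of which was -2.12 without NaAsO2 insoluble replicate 3, where its level was 2.68 times the mean of the other 2.

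RPS6, the target of S6 kinase, went from -1.32 (SE 0.17, adjusted p = 1.8e-06) in Ctrl to -2.17 (SE 0.18, adjusted p = 6.1e-10) after NaAsO2, and RPS3, which lines the mRNA entry channel, from -1.03 (SE 0.23, adjusted p = 6.7e-04) to -1.45 (SE 0.23, adjusted p = 1.1e-05). RPSA, also known as the laminin receptor precursor, had -1.37 (SE 0.28, adjusted p = 3.4e-04) and -1.25 (SE 0.28, adjusted p = 5.8e-04), and RPS27A, made as a fusion with ubiquitin, -1.12 (SE 0.29, adjusted p = 0.00285) and -1.14 (SE 0.29, adjusted p = 0.00198). RPSA and RPS27A were among the genes that NaAsO2 insoluble replicate 3 held high, with 285, 316 and 849 CPM for RPSA and 146, 157 and 463 CPM for RPS27A in that group. Without that library the difference after NaAsO2 was -1.90 for RPSA and -1.85 for RPS27A.

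RPS13 and RPS21 were among the most depleted members, with -1.79 (SE 0.14, adjusted p = 1.7e-09) and -1.76 (SE 0.13, adjusted p = 5.0e-10) in Ctrl and -3.07 (SE 0.15, adjusted p = 5.0e-13) and -2.81 (SE 0.13, adjusted p = 3.8e-13) after NaAsO2. RPS13 stood at 321, 317 and 371 CPM in the NaAsO2 soluble libraries and 39.9, 44.3 and 35.6 CPM in the insoluble ones, so its groups lay far apart and replicate 3 was not high. RPL10, which joins the large subunit late and completes the peptidyl transferase centre, had -1.02 (SE 0.13, adjusted p = 1.5e-06) and -2.20 (SE 0.14, adjusted p = 8.1e-12), and RPL41, which encodes the shortest protein of the family, -1.65 (SE 0.20, adjusted p = 5.6e-07) and -1.93 (SE 0.20, adjusted p = 2.5e-08).

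**Figure D3:**
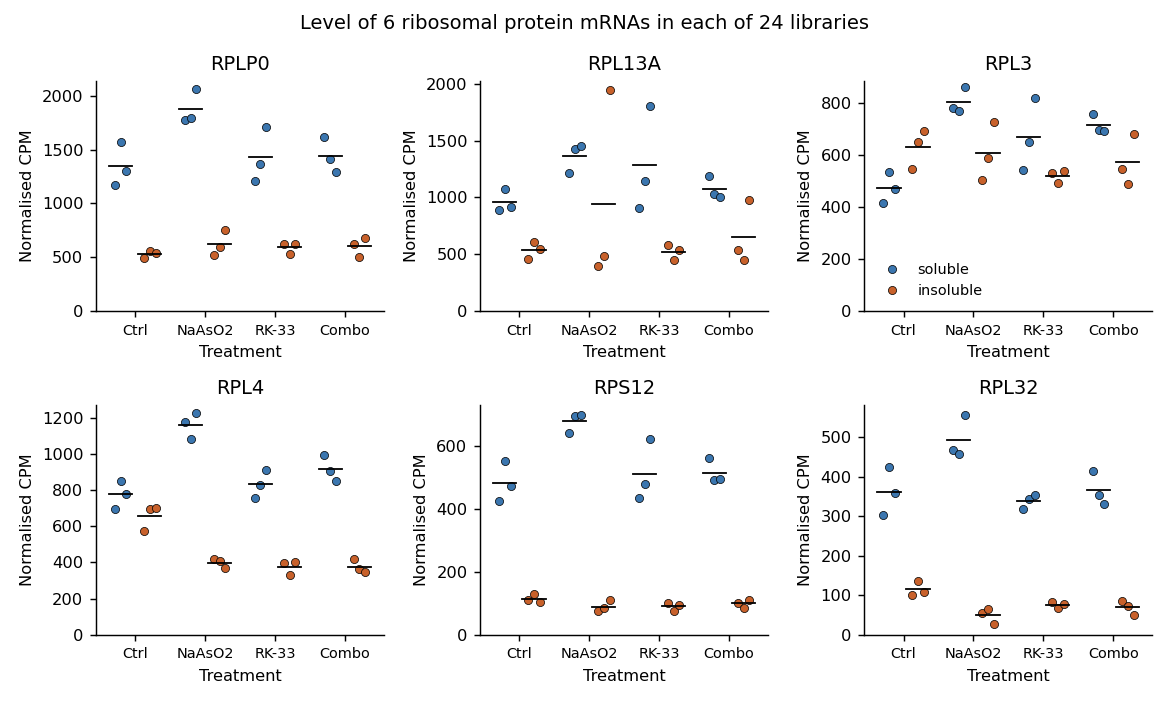
TMM-scaled levels (CPM, linear axes from 0) of RPLP0, RPL13A, RPL3, RPL4, RPS12 and RPL32 in all 24 libraries, by treatment and fraction, where each point is 1 library and short lines are group means. Soluble and insoluble libraries of RPLP0, RPS12 and RPL32 were separate in each treatment, RPL3 crossed from higher insoluble levels in Ctrl to lower ones after NaAsO2, and NaAsO2 insoluble replicate 3 stood out for RPL13A.

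The paralogs RPS27L, RPL39L, RPL10L and RPL3L, and RPL22, were lower in the insoluble fraction too. RPS27L was at 80.4, 97.8 and 86.9 CPM in the Ctrl soluble and 31.5, 32.96 and 28.4 CPM in the insoluble libraries, a log2 difference of -1.51 (SE 0.14, adjusted p = 2.3e-08), and -2.67 (SE 0.15, adjusted p = 2.6e-12) after NaAsO2, beside -1.06 (SE 0.25, adjusted p = 0.00127) and -2.16 (SE 0.26, adjusted p = 2.2e-07) for RPS27. RPL39L had -1.46 (SE 0.18, adjusted p = 8.1e-07) and -1.81 (SE 0.18, adjusted p = 1.1e-08). RPL10L, with 96.0 counts in the median library, had -0.97 (SE 0.21, adjusted p = 5.9e-04) and -1.33 (SE 0.20, adjusted p = 6.2e-06), and RPL22 -1.10 (SE 0.14, adjusted p = 1.4e-06) and -1.30 (SE 0.14, adjusted p = 8.1e-08). RPL3L, unlike RPL3, was lower in the insoluble fraction of Ctrl, with -0.74 (SE 0.28, adjusted p = 0.0335).

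For most of the family the distance between the fractions was larger after NaAsO2 than in Ctrl. The shift is the fraction difference after NaAsO2 minus that of Ctrl, tested as an interaction. It was lower for 50 of the 81 genes (all genes 11.4%) and higher for none (all genes 11%; also 0 by an unadjusted p under 0.05 and by DESeq2), with a median of -0.86 on the log2 scale against -0.02 over all genes. Without NaAsO2 insoluble replicate 3 the number was 69, among them all 50, and the median -0.88. A fold limit of at least 2 left 29. The shift was lowest for RPS4X (-1.70, SE 0.28, adjusted p = 1.5e-04), RPL32 (-1.66, SE 0.31, adjusted p = 5.2e-04) and RPL6 (-1.58, SE 0.21, adjusted p = 1.7e-05).

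RPS4X showed the shift in both fractions. It was at 387, 520.4 and 458 CPM in Ctrl soluble and 605, 634 and 707 CPM in NaAsO2 soluble libraries, and at 213, 236 and 217 CPM in Ctrl insoluble and 122, 116 and 53.96 CPM in NaAsO2 insoluble libraries. Soluble levels after NaAsO2 were all above Ctrl and insoluble levels all below it, replicate 3 the lowest. RPL6, a large subunit protein, was in the soluble fraction at 369.8, 464 and 407 CPM in Ctrl and 556, 526 and 607 CPM after NaAsO2. In the insoluble fraction it was at 177, 205 and 176 CPM in Ctrl and 94.8, 97.3 and 61.5 CPM after NaAsO2, and neither fraction overlapped. RPL3 shifted by -0.82 (SE 0.22, adjusted p = 0.00951) and RPL4 by -1.31 (SE 0.17, adjusted p = 1.4e-05).

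The least shifted genes were RPL13A (0.30, SE 0.55, adjusted p = 0.736), RPSA (0.12, SE 0.39, adjusted p = 0.852) and RPS9 (0.01, SE 0.47, adjusted p = 0.993). These were among the genes that NaAsO2 insoluble replicate 3 held high. Without it their shifts were -0.71 (adjusted p = 0.0897), -0.48 (0.123) and -0.88 (0.00366).

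**Figure D4:**
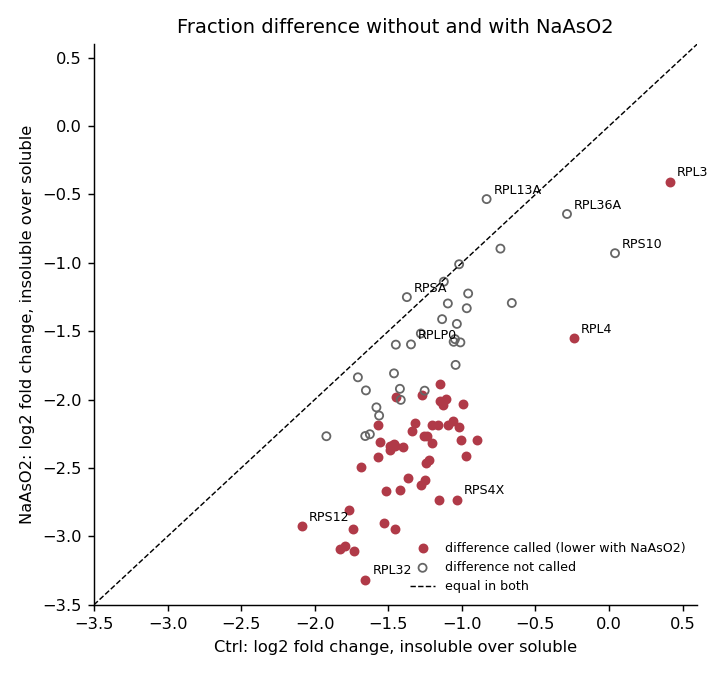
Log2 difference between the insoluble and soluble fraction in Ctrl (x axis) and after NaAsO2 (y axis) for the 81 genes (edgeR), where the line marks equal values and filled points passed the test of the shift. All but 3 genes lay below the line, and the 50 that passed lay 0.53 or more below it. The axes come from separate libraries.

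Each fraction was then compared with its own Ctrl. In the soluble fraction 24 of the 81 genes were higher after NaAsO2 than in Ctrl (all genes 6.31%) and 3 were lower (all genes 7%), with a median log2 difference of 0.43, a 1.34-fold rise, against 0.03 over all genes. Of all genes 26.9% had every NaAsO2 soluble library above every Ctrl soluble library, and of the 81 genes 70 did. RPL3 was the highest at 0.77 (SE 0.16, adjusted p = 0.00248), from 414, 534 and 467 CPM in Ctrl to 778, 767 and 860.1 CPM after NaAsO2 with no overlap, followed by RPS2 (0.63, SE 0.20, adjusted p = 0.0414) and RPL8 (0.60, SE 0.14, adjusted p = 0.00685).

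Members that passed and members that did not had log2 differences of like size, with the quartiles of the family at 0.34 and 0.49. Among the genes named by role RPLP0 (0.48, SE 0.16, adjusted p = 0.0445), RPL5 (0.40, SE 0.12, adjusted p = 0.0239), RPL10 (0.43, SE 0.13, adjusted p = 0.0328) and RPL4 (0.58, SE 0.12, adjusted p = 0.00281) passed, while RPS6 (0.46, SE 0.17, adjusted p = 0.0761), RPS13 (0.34, SE 0.14, adjusted p = 0.101) and RPL11 (0.34, SE 0.19, adjusted p = 0.235) did not. These 3 passed as well without NaAsO2 insoluble replicate 3, a library of neither group (adjusted p = 0.0168, 0.0402 and 0.0430), with log2 differences of 0.44, 0.32 and 0.33. With only the Ctrl and NaAsO2 soluble libraries in the fit 70 genes were higher and 4 lower. For alternative fits, here and below, the shares of all genes called are not given. With library size alone and no TMM factor 4 were higher and 4 lower, the median of all genes moving to -0.15. Leaving out 1 library at a time gave 58 higher and 4 lower without NaAsO2 insoluble replicate 3, 13 higher and 4 lower without Ctrl soluble replicate 2, and 12 higher and 4 lower without NaAsO2 insoluble replicate 1. There were 12 higher and 2 lower without NaAsO2 soluble replicate 2, 7 higher and 4 lower without Combo insoluble replicate 2, and 8 higher and 2 lower without NaAsO2 soluble replicate 1. The counts were 6 higher and 4 lower without Combo soluble replicate 1, 2 or 3, RK-33 insoluble replicate 3 or RK-33 soluble replicate 2, 4 higher and 2 lower without Ctrl soluble replicate 3, and 3 higher and 2 lower without NaAsO2 soluble replicate 3. The calls came to 2 higher and 2 lower without Ctrl soluble replicate 1.

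RPL36A and RPS10 were among the genes that fell in the soluble fraction. RPL36A was at 17.1, 14.5 and 16.9 CPM in Ctrl and 2.82, 5.58 and 5.69 CPM after NaAsO2, a log2 difference of -1.77 (SE 0.22, adjusted p = 2.6e-05). RPS10 was at 4.75, 3.496 and 4.603 CPM in Ctrl and 2.15, 2.29 and 2.85 CPM after NaAsO2, -0.81 (SE 0.25, adjusted p = 0.0337). In neither gene did the groups overlap. Both are low-count members here, with 109 and 31.5 counts in the median library. In the Combo soluble libraries, which also received arsenite, RPL36A stood at 6.68, 7.72 and 9.74 CPM.

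In the insoluble fraction 49 of the 81 genes were lower after NaAsO2 than in Ctrl (all genes 21.8%) and none were higher (all genes 21.2%; by an unadjusted p under 0.05, 1), with a median of -0.45 against -0.02. Without NaAsO2 insoluble replicate 3 there were 53 lower, 44 of them among the 49. With only the 6 insoluble libraries compared in the fit 11 passed. Among the lowest were RPL36A (-2.13, SE 0.23, adjusted p = 6.0e-07) and RPS10 (-1.78, SE 0.26, adjusted p = 2.3e-05), which also fell in the soluble fraction. RPL13A (0.81, SE 0.39, adjusted p = 0.0982), RPSA (0.64, SE 0.28, adjusted p = 0.0648) and RPS9 (0.48, SE 0.33, adjusted p = 0.251) had the highest values and did not pass. Without replicate 3 these 3 values were -0.21, 0.03 and -0.42, and RPS9 passed as lower (adjusted p = 0.0467).

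**Figure D5:**
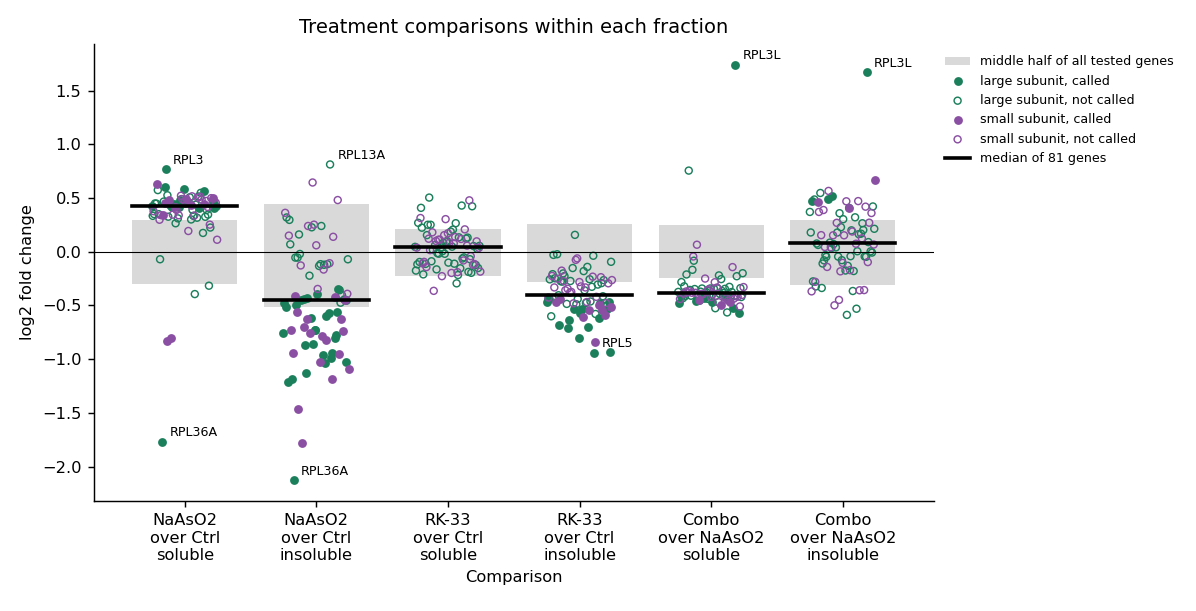
Log2 difference between treatments in each fraction (edgeR, TMM-scaled) for the 81 genes: NaAsO2 against Ctrl, RK-33 against Ctrl and Combo against NaAsO2; each point is 1 gene (green for the large and purple for the small subunit, filled where it passed the test), bars are medians and grey boxes span the quartiles of all tested genes. The family lay above 0 in the NaAsO2 soluble comparison (median 0.43) and below 0 in the NaAsO2 insoluble (-0.45), RK-33 insoluble (-0.41) and Combo soluble (-0.39) comparisons.

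With RK-33 in unstressed cells part of the family was lower in the insoluble fraction, and no member passed in the soluble one. In the RK-33 insoluble libraries 26 of the 81 genes were lower than in Ctrl (all genes 8.19%) and none were higher (all genes 5.71%; also 0 by an unadjusted p under 0.05), with a median of -0.41 against -0.004. Of all genes 22.7% had every RK-33 insoluble library below every Ctrl one, and of the 81 genes 59 did. RPL5 was at 255, 300.4 and 289 CPM in the Ctrl and 158, 125 and 157 CPM in the RK-33 insoluble libraries, the largest fall, at -0.94 (SE 0.12, adjusted p = 1.0e-05). RPL7 (-0.93, SE 0.17, adjusted p = 5.3e-04) and RPS4X (-0.84, SE 0.20, adjusted p = 0.00510) came next.

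RPL4 (-0.80, SE 0.12, adjusted p = 9.5e-05), RPL10 (-0.47, SE 0.13, adjusted p = 0.0181), RPS6 (-0.52, SE 0.17, adjusted p = 0.0455) and RPS13 (-0.47, SE 0.14, adjusted p = 0.0283) also fell. RPLP0 (0.16, SE 0.16, adjusted p = 0.580), RPL36A (-0.02, SE 0.21, adjusted p = 0.964) and RPL41 (-0.03, SE 0.19, adjusted p = 0.950) had the highest values and did not pass. With only the Ctrl and RK-33 insoluble libraries in the fit 62 genes were lower, and no member changed by 2-fold or more. The count of genes called lower was 45 without NaAsO2 insoluble replicate 3, 17 without RK-33 insoluble replicate 3, and 10 without Ctrl insoluble replicate 2 or RK-33 insoluble replicate 2.

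In the soluble fraction RK-33 changed none of the 81 genes by the edgeR test (all genes 2.09% higher and 3.24% lower), with a median of 0.04. At an unadjusted p under 0.05 there was 1 gene, RPL3, and DESeq2 called 1. RPL3 (0.50, SE 0.16, adjusted p = 0.0624), RPS9 (0.48, SE 0.33, adjusted p = 0.497) and RPL13A (0.43, SE 0.39, adjusted p = 0.623) had the highest values, and RPS10 (-0.36, SE 0.23, adjusted p = 0.456), RPL39 (-0.29, SE 0.18, adjusted p = 0.443) and RPS27 (-0.23, SE 0.24, adjusted p = 0.684) the lowest. RPL3 was at 414, 534 and 467 CPM in Ctrl and 540.4, 649 and 816 CPM with RK-33, with no overlap but wide spread among the RK-33 libraries. With 1 library left out the count called higher was 2 without NaAsO2 insoluble replicate 3, and 1 without NaAsO2 insoluble replicate 1, Combo insoluble replicate 3 or RK-33 soluble replicate 1. The 2 genes that passed without NaAsO2 insoluble replicate 3 were RPL3 (0.51, adjusted p = 0.00844) and RPS9 (0.48, adjusted p = 0.0241). Across the 81 genes the log2 difference rose with GC content (Spearman's rho 0.58; 0.41 over 17405 genes), and the part of GC content was not tested. The group holds RK-33 soluble replicate 3, whose own deviation rose with GC content, and the part of that library was not tested.

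The shift between fractions with RK-33 against Ctrl was lower for 4 genes (all genes 1.58%) and higher for none (all genes 0.606%; also 0 by an unadjusted p under 0.05 and by DESeq2), with a median of -0.45. Among them were RPL8 (-0.93, SE 0.20, adjusted p = 0.0144), RPL4 (-0.90, SE 0.17, adjusted p = 0.00597) and RPL5 (-0.88, SE 0.16, adjusted p = 0.00570), and RPL3 (-0.78, SE 0.22, adjusted p = 0.0651) did not pass. The highest values were those of RPL36A (0.09, SE 0.29, adjusted p = 0.941), RPLP0 (0.07, SE 0.22, adjusted p = 0.935) and RPS10 (0.01, SE 0.33, adjusted p = 1.000). With only the 4 compared groups in the fit 31 genes passed. The number called lower was 19 without NaAsO2 insoluble replicate 3, and 2 without Ctrl insoluble replicate 2, Ctrl soluble replicate 1 or RK-33 soluble replicate 3. RPL3 passed without NaAsO2 insoluble replicate 3, at -0.77 (adjusted p = 0.00778). The comparison shares the Ctrl libraries with that of NaAsO2, so their shifts are only set side by side. RPL5 shifted by -1.40 with NaAsO2 and -0.88 with RK-33, RPL4 by -1.31 and -0.90, and RPS12 by -0.84 and -0.41.

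With RK-33 before arsenite part of the family was lower in the soluble fraction than with arsenite alone. In the soluble fraction 12 of the 81 genes were lower in Combo than after NaAsO2 (all genes 1.67%) and 1 was higher (all genes 4.79%), with a median of -0.39 against -0.04. Of all genes 24.4% had every Combo soluble library below every NaAsO2 one, and of the 81 genes 74 did. The genes that fell were RPL35A (-0.57, SE 0.12, adjusted p = 0.00673), RPL30 (-0.53, SE 0.14, adjusted p = 0.0210), RPS27L (-0.49, SE 0.14, adjusted p = 0.0350), RPL38, RPL24, RPS26, RPL23, RPS21, RPL37A, RPL5, RPL21 and RPL19, of which RPL19 (-0.41, SE 0.11, adjusted p = 0.0324) fell least. RPL27 (-0.57, SE 0.19, adjusted p = 0.0825), RPL36A (0.75, SE 0.23, adjusted p = 0.0507) and RPS10 (0.06, SE 0.26, adjusted p = 0.917) did not pass. As in the comparison of NaAsO2 with Ctrl the values lay close together, with quartiles of -0.43 and -0.34, and both comparisons share the NaAsO2 soluble libraries.

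RPL35A was at 275, 254 and 292 CPM in the NaAsO2 and 203, 177 and 172 CPM in the Combo soluble libraries, with no overlap. RPL3L was the gene that rose. It was at 1.13, 1.396 and 1.93 CPM after NaAsO2 and 4.99, 4.65 and 5.46 CPM in Combo, a log2 difference of 1.74 (SE 0.24, adjusted p = 7.2e-05). In the insoluble fraction it was at 0.640, 0.772 and 1.07 CPM after NaAsO2 and 2.85, 2.46 and 2.41 CPM in Combo, a difference of 1.67 (SE 0.27, adjusted p = 3.9e-04). The groups did not overlap in either fraction, at a depth of 18 counts in the median library. RPL3 itself had -0.17 (SE 0.16, adjusted p = 0.555) in the soluble and -0.08 (SE 0.16, adjusted p = 0.749) in the insoluble fraction. With only the compared groups in the fit 68 genes were lower and 2 higher, and with library size alone 1 lower and 2 higher. Single libraries moved the counts to 2 higher and 42 lower without NaAsO2 insoluble replicate 3, 2 higher and 6 lower without Combo insoluble replicate 3, and 2 higher and 5 lower without Ctrl insoluble replicate 3. There were 2 higher and 4 lower without NaAsO2 insoluble replicate 1, 1 higher and 4 lower without NaAsO2 soluble replicate 2, and 2 higher and 2 lower without Ctrl soluble replicate 2, Combo insoluble replicate 2, Combo soluble replicate 1, RK-33 insoluble replicate 3 or RK-33 soluble replicate 2. The counts were 1 higher and 1 lower without NaAsO2 soluble replicate 1 or 3, and 1 higher and 0 lower without Combo soluble replicate 2 or 3. RPL27 (-0.53, adjusted p = 0.00739) and RPL36A (0.78, adjusted p = 0.0116) passed without NaAsO2 insoluble replicate 3.

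In the insoluble fraction 7 of the 81 genes were higher in Combo than after NaAsO2 (all genes 6.88%) and none were lower (all genes 6.9%; by an unadjusted p under 0.05, 1), with a median of 0.08 and a share of members near the share of all genes. They were RPL3L, RPS15A (0.66, SE 0.18, adjusted p = 0.0193), RPL6 (0.52, SE 0.15, adjusted p = 0.0248), RPL23, RPL21, RPS3A and RPS7. In these groups same-numbered libraries deviated together, and a fit of the 2 groups alone with the replicate number as a block called 1 gene higher. Without the block the same 6 libraries gave 0. The calls were 15 higher and 1 lower without NaAsO2 insoluble replicate 2, 9 higher and 4 lower without NaAsO2 insoluble replicate 1, and 3 higher and 0 lower without Combo insoluble replicate 2. There were 2 higher and 0 lower without Combo insoluble replicate 1. The lowest values were those of RPL17 (-0.59, SE 0.45, adjusted p = 0.371), RPL13A (-0.53, SE 0.39, adjusted p = 0.355) and RPS15 (-0.50, SE 0.26, adjusted p = 0.190), which NaAsO2 insoluble replicate 3 held high. Without that library these 3 values turned to 0.58, 0.51 and 0.10, and RPS15A (0.46, adjusted p = 0.0785) and RPL6 (0.29, adjusted p = 0.136) no longer passed.

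The shift of Combo against NaAsO2 was higher, meaning a smaller distance between the fractions in Combo, for 3 genes (all genes 0.136%), RPL23 (0.95, SE 0.19, adjusted p = 0.0202), RPL21 (0.89, SE 0.17, adjusted p = 0.0202) and RPS3A (0.83, SE 0.18, adjusted p = 0.0384), and lower for none (all genes 0.221%; also 0 by an unadjusted p under 0.05 and by DESeq2), with a median of 0.49. RPS15A (0.99, SE 0.25, adjusted p = 0.0713) had the highest value and did not pass, and RPS9 (-0.21, SE 0.47, adjusted p = 0.865), RPL36A (-0.21, SE 0.34, adjusted p = 0.810) and RPL13A (-0.18, SE 0.55, adjusted p = 0.905) had the lowest. The values of RPS9 and RPL13A, without NaAsO2 insoluble replicate 3, turned to 0.67 and 0.83, above the median of the family. RPL23 was at 249.6, 231 and 237 CPM in the NaAsO2 soluble and 51.2, 52.1 and 37.9 CPM in the NaAsO2 insoluble libraries, and in Combo at 185, 159 and 177 CPM in the soluble and 66.8, 61.4 and 70.2 CPM in the insoluble libraries. Its fractions lay further apart after NaAsO2 alone than in Combo. The fit of the compared groups alone called 0, as did a block for each lysate, the pair of fractions of 1 treatment and number (0), and DESeq2 called 13. The number called higher was 7 without NaAsO2 insoluble replicate 1 or 3 or Combo insoluble replicate 3, 5 without NaAsO2 insoluble replicate 2, and 1 without NaAsO2 soluble replicate 1 or 2, Ctrl soluble replicate 2 or RK-33 soluble replicate 2. It fell to 0 without NaAsO2 soluble replicate 3, Combo insoluble replicate 1 or 2 or Combo soluble replicate 1, 2 or 3.

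Genes of ribosomal proteins and their paralogs that the symbol rule left out were lower in the insoluble fraction of Ctrl as well. Those tested included FAU (fused to a ubiquitin-like protein), RACK1, RPL22L1, RPL26L1, RPL7L1 and RPL36AL, and all were lower (7 of 7, against 26.6% of all genes, median -1.41). After NaAsO2 a lower level was found for 6 (all genes 29.7%, median -2.19). The exception was RPL7L1, a nucleolar paralog of RPL7, which went from -1.06 (SE 0.21, adjusted p = 2.9e-04) in Ctrl to 0.09 (SE 0.21, adjusted p = 0.721) after NaAsO2, a shift of 1.15 (SE 0.30, adjusted p = 0.00743). Without NaAsO2 insoluble replicate 3 its value after NaAsO2 was -0.43 and its shift 0.68 (adjusted p = 2.9e-04). RPL7 itself shifted the other way, -1.44 (SE 0.23, adjusted p = 1.5e-04). RACK1, the small subunit scaffold, shifted by -1.32 (SE 0.19, adjusted p = 3.3e-05) and FAU by -0.0012 (SE 0.37, adjusted p = 0.999), which was -0.54 (adjusted p = 0.0460) without NaAsO2 insoluble replicate 3.

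Other TOP mRNAs encode translation factors and small nucleolar RNA hosts. Of 26 tested, 13 were lower and 2 higher in the insoluble fraction of Ctrl (median -0.35), where 26.6% of all genes were lower and 24.4% higher. After NaAsO2 21 were lower and 1 higher (median -1.06, all genes 29.7% and 27.9%), and 17 had a lower shift and 1 a higher one (all genes 11.4% and 11%). EEF2, the translocase of elongation, was like RPL3 higher in the insoluble fraction of Ctrl. It was 0.70 (SE 0.14, adjusted p = 2.3e-04) in Ctrl and -0.93 (SE 0.14, adjusted p = 4.8e-06) after NaAsO2, a shift of -1.63 (SE 0.19, adjusted p = 5.8e-06), and -1.39 (SE 0.19, adjusted p = 4.9e-04) with RK-33. EEF1A1, which delivers aminoacyl-tRNA, had -0.11 (SE 0.16, adjusted p = 0.581) and -1.04 (SE 0.16, adjusted p = 1.1e-05). TPT1 (-1.61, SE 0.13, adjusted p = 3.1e-09 and -2.60, SE 0.14, adjusted p = 1.4e-12) and NACA (-1.55, SE 0.20, adjusted p = 1.2e-06 and -2.80, SE 0.21, adjusted p = 1.2e-10) lay within the range of the ribosomal proteins, and TOMM20 shifted the other way (0.64, SE 0.16, adjusted p = 0.00550).

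That list holds 5 host transcripts of small nucleolar RNAs, which are short-lived when translated. Of these, GAS5, SNHG1 and SNHG5 were higher in Combo than after NaAsO2 in both fractions. SNHG6 (-0.24 soluble and 0.36 insoluble) and SNHG8 (0.57 and 0.27) did not pass. Without NaAsO2 insoluble replicate 3 SNHG8 passed in both fractions, at 0.61 (adjusted p = 0.0134) and 1.33 (adjusted p = 1.4e-04), while SNHG6 did not. SNHG5 was 2.17 (SE 0.29, adjusted p = 5.1e-05) in the soluble and 2.14 (SE 0.29, adjusted p = 5.3e-05) in the insoluble fraction of Combo against NaAsO2, GAS5 0.67 (SE 0.13, adjusted p = 0.00201) and 1.08 (SE 0.13, adjusted p = 1.2e-05), and SNHG1 0.82 (SE 0.23, adjusted p = 0.0322) and 1.28 (SE 0.23, adjusted p = 0.00108). EIF4A2 rose as well, by 1.29 (SE 0.11, adjusted p = 3.9e-08) and 1.34 (SE 0.11, adjusted p = 3.7e-08). Among the members RPL3L was the one gene called higher in that soluble comparison.

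Among 16 binders and regulators of TOP mRNAs, LARP1 went from 0.57 (SE 0.09, adjusted p = 3.7e-05) in Ctrl to 1.54 (SE 0.10, adjusted p = 9.8e-12) after NaAsO2 and RPTOR, the mTORC1 scaffold, from 0.86 (SE 0.17, adjusted p = 1.9e-04) to 1.56 (SE 0.17, adjusted p = 4.6e-08). Of the list 8 were lower and 5 higher after NaAsO2, against 29.7% and 27.9% of all genes. The lowest values were those of SSB (-1.97, SE 0.24, adjusted p = 3.7e-07) and EIF4EBP1 (-1.88, SE 0.22, adjusted p = 1.9e-07). Of 32 ribosome biogenesis factors 20 were lower and 5 higher after NaAsO2 (all genes 29.7% and 27.9%), between NOP10 (-2.68, SE 0.23, adjusted p = 1.2e-09) and UTP20 (1.85, SE 0.21, adjusted p = 1.1e-07). Of 76 mitochondrial ribosomal protein genes tested, 66, 68, 71 and 73 were lower in the insoluble fraction of Ctrl, NaAsO2, RK-33 and Combo (all genes 26.6, 29.7, 30.4 and 28%), with medians of -0.996, -1.44, -1.44 and -1.26, and 23 had a lower shift with NaAsO2 (all genes 11.4%, median -0.48).

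Intron counts gave a second readout of the same loci. Of the family's reads in exons and introns together, introns took 1.91% ± 0.460 (SD, n = 3) in the soluble fraction of Ctrl and 3.72% ± 0.620 in the insoluble one, against 20.6% ± 2.53 and 33.4% ± 2.86 over all genes. After NaAsO2 the family's intron share was 0.734% ± 0.0631 and 1.93% ± 0.514, with RK-33 1.68% ± 0.418 and 4.59% ± 0.758, and in Combo 1.42% ± 0.285 and 2.62% ± 0.275. Over all genes the intron share of single libraries was 13.7 to 18.9% in the soluble and 17.2 to 24.3% in the insoluble fraction after NaAsO2. With RK-33 it was 13.3 to 22.6% and 34.8 to 37.5%, and in Combo 18.1 to 28.4% and 22.3 to 30.2%. The family's share was higher in the insoluble than in the soluble fraction of every treatment and low throughout. Introns of 28 members hold small nucleolar RNA genes, and over the 50 without one the Ctrl shares were 1.97% ± 0.530 and 4.06% ± 0.641. The nuclear transcripts NEAT1 and KCNQ1OT1 were also higher in the insoluble fraction of Ctrl (1.84, SE 0.19, adjusted p = 9.6e-08 and 1.73, SE 0.25, adjusted p = 5.8e-06) while MALAT1 was lower (-1.07, SE 0.20, adjusted p = 1.4e-04), and the part of carried-over nuclear RNA in the fraction differences was not tested. Among 8 RNAs bound to or made at the endoplasmic reticulum 5 had higher levels in the pellet of Ctrl (all genes 24.4%) and 2 had lower ones (all genes 26.6%), and their part was not tested either.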

How the data were processed

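Exon and intron counts per gene of 24 libraries were used, as deposited. Per the labels, the processing notes and the file headers, the authors aligned reads with STAR 2.7.2b to GRCh38.p13, used SAMtools 1.2, and made the deposited counts with featureCounts 1.5.3 from unique alignments without strand by GENCODE gene name, with introns as genes minus merged exons and at least 25 bases of overlap. Reads shared with pseudogenes were thereby dropped. Circular RNA tables were not used here.

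Counts were fitted with edgeR 4.0.16 in R 4.3.3 (quasi-likelihood, TMM factors, 8 groups, no block, genes averaging 1 CPM or more), and a call is a Benjamini-Hochberg adjusted p under 0.05 over 17666 genes. The SE beside a value was derived from the test. It is the absolute log2 difference divided by the square root of the F statistic. The script was tested on simulated data. No 2 libraries of a group agreed within sampling noise. Same-numbered NaAsO2 and Combo insoluble libraries deviated together (correlations 0.67, 0.68 and 0.82 over 10260 genes), so the blocked value stands beside that comparison, although the labels say nothing of a shared batch. Nor do they say that equal numbers mark 2 fractions of 1 lysate, which the share ratios and the lysate block take as given. Correlations of same-numbered fractions were 0.21, 0.34 and 0.09 in Ctrl and 0.06, -0.003 and 0.12 after NaAsO2. They were 0.03, -0.12 and 0.06 with RK-33 and -0.10, -0.07 and -0.32 in Combo. The members, the lists and the rule for naming genes (the 3 highest and 3 lowest members of each comparison, members by role, and the 2 extremes of other lists) were chosen with earlier results of these data known. Other members that passed in counts of 12 or fewer, RPS12 in the side-by-side shifts and RPL35A, RPL21, RPS3A and the small nucleolar RNA hosts were named after their values were seen. Values of some genes that the rule names are not reported here. Alternatives were DESeq2 1.42.0, edgeR's likelihood ratio test, other scaling, filters, pseudogene or intron counts added, the compared groups alone, replicate blocks and leaving out each library.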

Additional observations from a re-analysis of the deposited data

Results flagged for a closer look

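The difference between the fractions itself differed between treatments for some members, by the interaction term of the edgeR fit. This shift was lower for 50 members with NaAsO2 against Ctrl (all genes 11.4%) and for 4 with RK-33 against Ctrl (all genes 1.58%). It was higher for 3 with Combo against NaAsO2 (all genes 0.136%). Leaving out 1 library at a time gave 45 to 69, 2 to 19 and 0 to 7 members. With only the compared groups in the fit, or with a block for each lysate, no member passed in the Combo shift. Among the genes named with such a value, the shift with NaAsO2 was -1.70 for RPS4X, -1.66 for RPL32, -1.58 for RPL6, -1.44 for RPL7, -1.40 for RPL5, -1.31 for RPL4, -0.84 for RPS12 and -0.82 for RPL3. Of genes outside the family it was -1.63 for EEF2 and -1.32 for RACK1, and in the other direction 1.15 for RPL7L1 and 0.64 for TOMM20. With RK-33 it was -0.93 for RPL8, -0.90 for RPL4, -0.88 for RPL5 and -1.39 for EEF2. In Combo against NaAsO2 it was 0.95 for RPL23, 0.89 for RPL21 and 0.83 for RPS3A.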

How the results depend on the processing

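The 4 comparisons of fractions stayed within 1.5 times their counts under every alternative run: leaving out 1 library at a time gave 74 to 79 members in Ctrl, 77 to 80 after NaAsO2, 76 to 79 with RK-33 and 78 to 80 in Combo, with medians of -1.35 to -1.21, -2.21 to -1.995, -1.79 to -1.58 and -1.71 to -1.61. The counts of the treatment comparisons, here called members in either direction, moved far more than their medians. The shares of all genes called in these fits are not given, so a changed count may hold for all genes as well. Leaving out 1 library gave for NaAsO2 against Ctrl 4 to 62 soluble and 41 to 53 insoluble members (medians 0.33 to 0.45 and -0.50 to -0.35), 0 to 2 and 10 to 45 for RK-33 (-0.08 to 0.12 and -0.48 to -0.33), and 1 to 44 and 2 to 16 for Combo against NaAsO2 (-0.42 to -0.30 and -0.01 to 0.17). The shift gave 45 to 69 members for NaAsO2, 2 to 19 for RK-33 and 0 to 7 for Combo (medians -0.90 to -0.61, -0.52 to -0.34 and 0.30 to 0.52). Without Combo soluble replicate 2 or replicate 3 the balance of Combo against NaAsO2 in the soluble fraction turned to 1 member higher and 0 lower. Without NaAsO2 insoluble replicate 3 the signs of several named values turned, as given beside each: RPL13A and RPS9 against Ctrl, the NaAsO2 shifts of RPL13A, RPSA and RPS9, RPL7L1 between the NaAsO2 fractions, RPS10 between the Ctrl fractions, RPL17, RPL13A, RPS15 and RPL3 (to 0.02) in Combo against NaAsO2 in the insoluble fraction, and the Combo shifts of RPL13A and RPS9. Where a call came with the turn, leaving out 1 library gave -0.42 to 0.87 for RPS9 in that group against Ctrl, -0.88 to 0.46 for its shift and -0.43 to 0.40 for RPL7L1 between the NaAsO2 fractions.

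With only the compared groups in the fit, NaAsO2 against Ctrl gave 74 soluble and 11 insoluble members, RK-33 2 and 62, Combo against NaAsO2 70 and 0, and the shift 31 for RK-33 and 0 for Combo. A fold limit of 2 left 1, 11, 0 (RK-33 insoluble), 1 and 1 members in the treatment comparisons and 29, 0 and 0 in the shifts of NaAsO2, RK-33 and Combo. DESeq2 called 28 members for Combo soluble, 1 for RK-33 soluble, and 7 and 13 in the shifts of RK-33 and Combo, and edgeR's likelihood ratio test 1 for RK-33 soluble and 13 in the Combo shift. Library size alone gave 8 for NaAsO2 soluble, 3 for Combo soluble, with the balance turned, and 1 for RK-33 soluble. With no filter the counts were 15 for NaAsO2 soluble, 3 and 4 for Combo and 6 for the Combo shift. Exon plus intron counts gave 16 for RK-33 insoluble, 27 and 3 for Combo soluble and insoluble, 2 for the RK-33 shift and 0 for the Combo shift. Pseudogene counts added to their parent genes gave 12 for NaAsO2 soluble and 4 for Combo soluble. The replicate block by number gave 1 member for RK-33 soluble, the block of the compared groups 1 for Combo insoluble, and the lysate block 0 in the Combo shift, and no block moved another count by over 1.5 times. Except for fewer samples or genes by construction, the cause was not tested.

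The log2 ratio of shares moved to -1.39 in Ctrl and -1.68 in Combo without RN7SL, and to -1.53 in Ctrl, -1.97 with RK-33 and -1.66 in Combo when introns were counted in the total. Depth limited the statements on RPL3L, RPS10, RPL17 and RPL10L most, and values of members with overlapping genes or pseudogenes may hold reads of those. All values are relative to the RNA of each library.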
